A study of Strongylocentrotus purpuratus with 10 samples.

Results

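Runs of neighbouring transcriptional regulatory elements (TREs) that were listed in 20 h embryos of the purple sea urchin and not in 12 h embryos are described here. TREs were called by dREG, a program that finds initiation of transcription in PRO-seq data. Peaks of the same list less than 500 bp apart were merged into regions, and the regions of both ages were put in order along each scaffold. A run is 3 or more consecutive 20 h regions that overlapped no 12 h region, with no 12 h region between them and every gap at most 10 kb. By this rule 4965 of the 39851 merged 20 h regions stood in 1323 runs. They held 6067 of the 56753 listed 20 h peaks. The members were chosen by position and overlap of the regions in both lists, so the number, size and spacing of the runs are descriptions and carry no test.

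PRO-seq maps the 3′ ends of nascent RNA in isolated nuclei at base resolution. The labels give 6 libraries of 20 h embryos, numbered as 4 biological replicates, and 4 libraries of 12 h embryos, numbered as 3 biological replicates. Whole embryos were grown at 15 degrees Celsius, no treatment or genotype is given, and the labels call both ages hatching blastulae. The libraries of each age were pooled before the calls, so each age has 1 list and no value below has an error between biological replicates.

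Promoters and active enhancers both start short divergent transcripts, and dREG recognises that pattern. Developmental regulatory genes are known for being served by several separate elements, each of which can act in a different territory or at a different time. At the blastula stage the sea urchin embryo is a ciliated hollow ball in which gene regulatory networks assign cells to ectoderm, endoderm and mesoderm. The deposited lists give positions and probabilities only. No gene annotation of the same genome version was used here, so the elements were not split into promoters and distal elements.

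Of all merged 20 h regions, 20646 (51.8%) overlapped no 12 h region and are called 20 h-only. The same count at 12 h was 12664 of 31840 regions (39.8%), called 12 h-only. Of the 20 h-only regions, 24.0% stood in runs, against 5.79% of the 12 h-only regions when the rule was applied with the ages exchanged. The runs thus numbered 1323 at 20 h against 222 at 12 h, and their ratio was 5.96. The 20 h list was longer by a factor of 1.25 in merged regions, and per 1000 merged regions the runs numbered 33.2 at 20 h and 6.97 at 12 h. The number of runs need not rise in proportion to the length of a list. The 20 h runs spanned 14.7 Mb in sum and the 12 h runs 2.29 Mb. The ratio depended on which peaks were kept. With the 20 h list alone cut to the number of 12 h peaks by probability there were 808 runs at 20 h against 358 at 12 h, and the ratio was 2.26. With a probability within 0.001 of 1 required of 20 h peaks only, an alternative chosen after seeing the data, there were 457 runs at 20 h against 544 at 12 h, and the ratio turned to 0.840. With the same limit on both lists there were 753 at 20 h against 117 at 12 h. By the study's methods many more reads were mapped for the older embryos, a larger difference in proportion than that in list length. The paper also reports a much lower Pearson correlation of PRO-seq reads between replicates for the older embryos, though a slightly higher Spearman correlation. Its authors named embryo batches that differed, at times in season, and a distinct nuclear extraction for part of the 20 h chromatin accessibility data. Citing these, they did not compare the profiles of the ages quantitatively over the genome. They kept mainly to qualitative comparisons of peak calls. With 1 pooled list per age, stage, depth and embryo batch cannot be told apart.

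The difference between the ages grew with the size of the stretch. Single 20 h-only regions numbered 10835 and single 12 h-only regions 9427. Pairs numbered 2423 at 20 h and 1252 at 12 h. Runs of 3 numbered 795 at 20 h and 177 at 12 h, which was 60.1% of the 20 h runs and 79.7% of the 12 h runs. Runs of 5 or more numbered 236 at 20 h against 13 at 12 h, 18.2 times as many. The largest 20 h run held 13 regions and the largest 12 h runs held 7. Sizes of 8 and above, 27 runs in all, were seen only at 20 h. A larger share of stage-specific regions favours longer stretches. That share was 51.8% at 20 h and 39.8% at 12 h, so the growth with size is not independent of it.

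**Figure D1:**
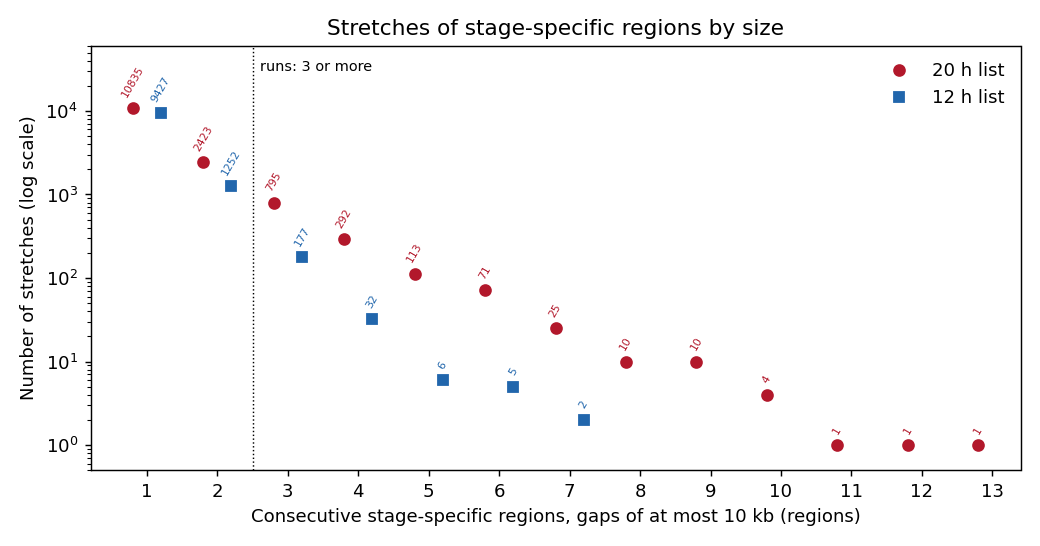
Number of stretches of consecutive stage-specific regions (vertical axis, log scale) against the number of regions in the stretch, for the 20 h list (red circles) and the 12 h list (blue squares). Each count is printed beside its point. The lists are close for single regions, with 10835 at 20 h and 9427 at 12 h, and draw apart to 236 and 13 for stretches of 5 or more.

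To see how far stage-specific regions kept together, overlapping regions of both lists were joined into 52371 loci, of which 39.4% were 20 h-only, 24.2% were 12 h-only and 36.4% were shared. The next locus along the scaffold was then read for each. Gaps under 0.5 kb were left aside, because merging removes them within a list but not between lists. Over gaps of 0.5 to 10 kb, the locus after a 20 h-only locus was itself 20 h-only in 52.4% of 11575 cases (95% Wilson interval 51.5 to 53.3%). After a shared locus it was 20 h-only in 37.4% of 10430 cases (36.5 to 38.3%), and after a 12 h-only locus in 31.2% of 5807 cases (29.99 to 32.37%). Wilson intervals here and below cover counting error only, and neighbouring loci are not independent of each other. No comparison with randomised stage labels was made.

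The tendency was greatest at short range. After a 20 h-only locus, the share of 20 h-only loci was 61.6% at gaps of 0.5 to 1 kb. It was 55.4% at 1 to 2.5 kb, 50% at 2.5 to 5 kb and 47.5% at 5 to 10 kb. At 10 to 20 kb it was 41.6%, and at 20 to 50 kb it was 37.1%. After a shared locus the share moved little over the same distances, between 38.9% at 0.5 to 1 kb and 36.1% at 10 to 20 kb. The intervals of the 2 shares overlapped at 20 to 50 kb and at no shorter range. The 12 h-only loci also kept together. Within 0.5 to 10 kb, the locus after a 12 h-only locus was 12 h-only in 30.4% of cases, against 20.5% after any locus. On the same measure, the share of 20 h-only loci was 52.4% after a 20 h-only locus and 42.3% after any locus.

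**Figure D2:**
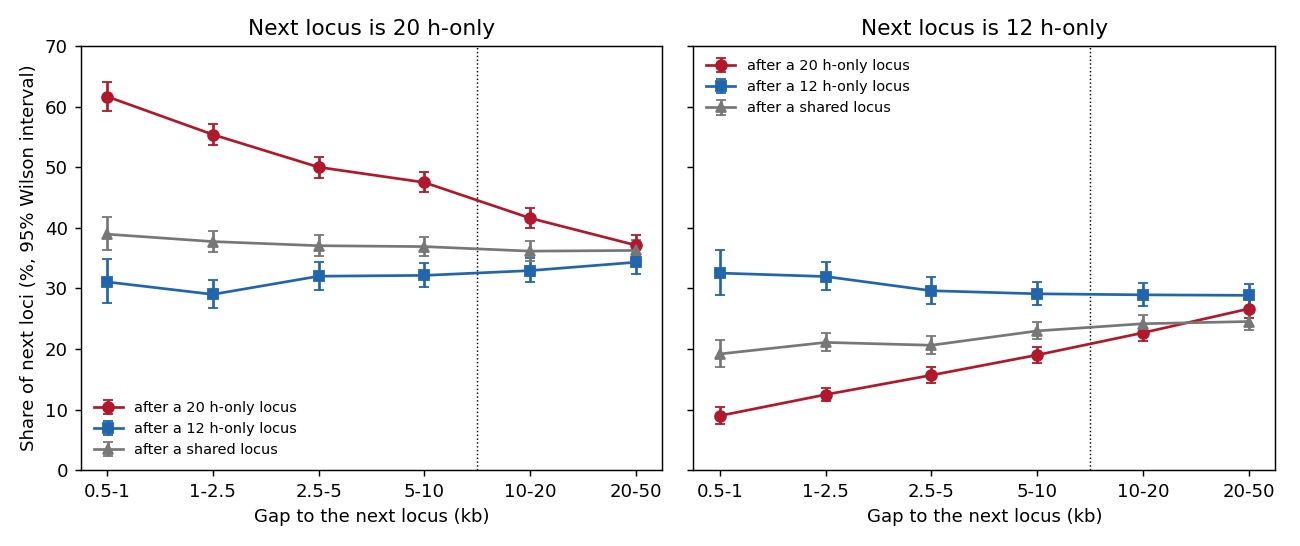
Share of next loci (vertical axis, percent, bars are 95% Wilson intervals for counting error) that were 20 h-only (left panel) or 12 h-only (right panel), by the gap to the next locus in kb and by the kind of the first locus. In the left panel the share after a 20 h-only locus is 61.6% at the shortest gaps and 37.1% at 20 to 50 kb, where it meets the share after a shared locus. The dotted line is the largest gap within a run, 10 kb.

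The median spans of runs were close to each other at 20 h and at 12 h, and they were not compared with the lengths of genes. The median span was 9930 bp at 20 h, with quartiles of 6660 and 14270 bp and a range from 2310 to 43680 bp. The median span at 12 h was 9635 bp, with quartiles of 6753 and 12895 bp. The span followed the number of regions, with medians of 8040 bp for 3 regions, 11685 bp for 4, 15160 bp for 5, 17830 bp for 6, 22810 bp for 7 and 29610 bp for 8 or more. Spacing within runs was slightly denser at 20 h. Gaps had a median of 2555 bp in 20 h runs against 3210 bp in 12 h runs, and regions covered a median of 17.1% of the span at 20 h and 14.6% at 12 h. The median density was 3.55 regions per 10 kb of span at 20 h and 3.38 at 12 h. Since the rule set the largest gap, none of these spacings is independent of it.

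The regions of a run lay well away from 12 h elements, not just outside their edges. The median distance from a run region to the nearest 12 h region was 10280 bp. It was 7590 bp for pairs of 20 h-only regions and 5720 bp for single ones. Of the regions on scaffolds that also held a 12 h region, 44 of 4913 run regions (0.896%) lay within 500 bp of a 12 h region, against 483 of 10337 single regions (4.67%). A region inside a run cannot have a 12 h neighbour, so part of this distance is set by the rule. All regions of 14 runs stood on scaffolds with no 12 h region at all.

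Most runs were bordered by TREs already listed at 12 h. Each run has 2 flanks, 2646 in all. The next region was shared by both ages at 51.2% of them, at a median distance of 5425 bp. It was 12 h-only at 21.8%, at a median of 7170 bp. At 21.7% it was another 20 h-only region beyond the 10 kb gap, and at 5.29% the scaffold held no further region. Shared regions on both sides bordered 346 runs (26.2%), and a shared region on 1 side with a 12 h-only region on the other bordered 309 (23.4%). Both sides ended at a gap in 69 runs (5.22%). The rule ends a run only at a 12 h region, at a gap over 10 kb or where the list ends. Borders with 12 h regions are therefore partly set by it. At the flanks of single 20 h-only regions the next region was shared in 43.0% and 12 h-only in 26.7%. For pairs these shares were 47.6% and 24.0%.

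The flanks of runs were more often shared regions than the flanks of lone 20 h-only regions were. Among flanks that held any 12 h region, the shared kind made up 70.1% for runs (68.0 to 72.1%, 1354 of 1931). It made up 66.5% for pairs (64.9 to 68.0%) and 61.7% for single 20 h-only regions (60.9 to 62.5%). Over all loci with a 12 h region the share was 60.1%. With the ages exchanged, 57.6% of such flanks of 12 h runs were shared regions (52.1 to 62.9%). The intervals of runs and single regions did not overlap, while those of 12 h runs and all loci did.

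The shared regions beside runs were strong calls. The highest dREG probability in a region was read as 1 minus the probability, so that a lower value is a stronger call, and it was used as a rank within the list. Probabilities were listed from 0.95 upwards. The 1315 shared 20 h regions next to a run had a median 1 minus probability of 1.26e-08 (95% interval of the median 3.34e-09 to 4.64e-08). The 7747 shared regions next to a single 20 h-only region and to no run had a median of 3.79e-07 (2.33e-07 to 6.11e-07). They were also wider next to runs, with a median of 680 bp against 580 bp, and 52.5% held more than 1 peak against 45.7%. Beside runs the highest probability was thus taken from more peaks per region.

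The regions inside runs were themselves called more strongly than lone stage-specific regions and less strongly than shared ones. The median 1 minus probability was 0.000155 in run regions (interval 0.000101 to 0.000210), 0.000280 in pairs (0.000218 to 0.000390) and 0.00107 in single 20 h-only regions (0.000918 to 0.00124). In shared 20 h regions it was 6.01e-07. By size of the run it was 0.000169 in runs of 3, 9.22e-05 in runs of 4 and 0.000125 in runs of 5 or 6. In runs of 7 or more it was 0.000408 (0.000105 to 0.000866), and this interval overlapped that of pairs. More than 1 peak was held by 18.0% of run regions, 14.3% of pairs, 10.6% of single regions and 45.3% of shared regions. A region with more peaks has more values to take the highest from, so strength is not independent of peak number. Regions with no peak at 0.99 or above made up 21.3% of run regions (20.2 to 22.5%), 29.5% of single regions (28.6 to 30.3%) and 11.1% of shared regions. Run regions at 12 h had a median of 0.000725, with an interval of 0.000336 to 0.00142, but probabilities were not normalised between the lists.

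A listed probability of exactly 1 did not follow the same order. It was held by 18.0% of run regions (16.9 to 19.1%), 19.8% of single 20 h-only regions (19.1 to 20.6%) and 21.4% of shared regions. The share was lower in the larger runs, with 19.5% in runs of 3 (17.9 to 21.1%), 18.4% in runs of 4, 15.5% in runs of 5 or 6 and 14.3% in runs of 7 or more (11.2 to 17.9%). The regions at the ends of a run held it in 19.6% of cases (18.1 to 21.1%) and those in the interior in 16.2% (14.7 to 17.7%).

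**Figure D3:**
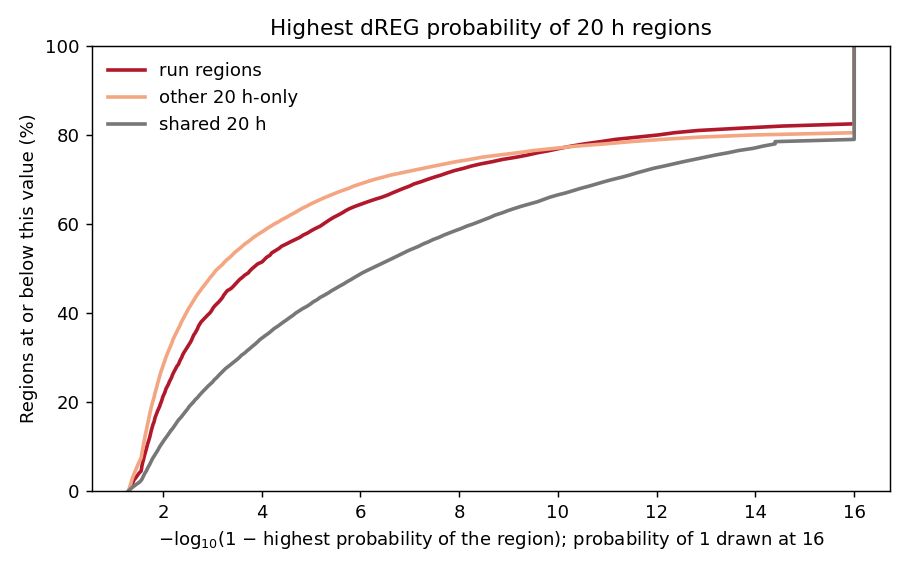
Cumulative share of 20 h regions (vertical axis, percent) by the strength of their best peak, as −log10 of 1 minus the probability, with a probability of 1 drawn at 16. Run regions (red) lie to the right of other 20 h-only regions (orange) over the lower values and to the left of shared regions (grey), with medians of 0.000155, 0.000769 and 6.01e-07 in 1 minus probability, and at the right end run regions have the smallest share at exactly 1.

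Strength was mixed within runs. At least 1 region at a probability of 1 was found in 686 runs (51.9%), while 757 (57.2%) held at least 1 region under 0.99. Counted per region, 18.0% of run regions were at 1 and 21.3% under 0.99. A run has 3 or more regions to hold either kind, so the counts per run are not independent of run size. Every region reached 0.99 in 566 runs (42.8%). In 206 runs (15.6%) every region was within 0.001 of 1, called very strong here, and in 68 runs (5.14%) none was. Run regions were 400 bp wide in the median and 18.0% of them held more than 1 peak, against 360 bp and 10.6% for single 20 h-only regions and 580 bp and 45.3% for shared ones. Width is not independent of the rule, since a wider region overlaps the other list more easily.

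The largest run held 13 regions on Scaffold364, from 513091 to 546970 (genome version 3.1, as are all positions here). Its first 3 regions fell in fragments that the study's reporter table names for Tbx23, a gene of the T-box family of transcription factors. The regions were 240 to 870 bp wide and 550 to 5800 bp apart. Regions 5, 8 and 9 counted from the left had a listed probability of 1 and region 6 reached 7.94e-10 in 1 minus probability, so the strongest calls sat in the middle of the run. The weakest, region 3, was at 0.0229, and 9 of the 13 regions were very strong. Shared regions lay 1220 bp to the left and 880 bp to the right, so the run filled the space between 2 elements that were listed at both ages.

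The second run held 12 regions over 31140 bp on Scaffold901, from 307821 to 338960. Regions 5, 7 and 11 were listed at 1, and the weakest, region 2, was at 0.00972, so that all 12 regions lay above 0.99. A shared region stood 500 bp to its left and another 10650 bp to its right. No reporter fragment overlapped it. The same scaffold held a second run, of 8 regions from 389591 to 415730, which began 50630 bp further on and overlapped 3 fragments named for Nk22, a homeobox gene of the NK family. In that run region 7 was listed at 1, region 6 was at 1.49e-11, and the weakest, region 2, was at 0.0394.

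The third run held 11 regions over 34450 bp on Scaffold704, from 564911 to 599360, and overlapped 5 fragments named for GataC, a gene for a GATA-type zinc finger factor. Of its regions, 6 lay in those fragments. Regions 8, 9 and 11 at its right end were listed at 1, and region 9, with 3 peaks, was 1340 bp wide. The weakest, region 4, was at 0.0375. To the right a gap of 16980 bp without any region of either age led to a further run of 5 regions from 616341 to 639370. No 12 h region lay between the 2 runs.

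A run of 10 regions on Scaffold1440, from 123161 to 152770, overlapped 2 fragments named for Chordin, a secreted antagonist of BMP ligands. Its last region was listed at 1 and the one before it was at 3.87e-12. The weakest, region 6, was at 0.0379 and was the narrowest at 150 bp, and 5 of the 10 were very strong. A second run of 3 regions, from 101731 to 109790, also overlapped Chordin fragments. From the start of the run of 3 to the end of the run of 10, 51.0 kb, the 20 h list held 14 regions. Of these, 13 stood in the runs, and the 12 h list held 1 region.

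The remaining runs of 10 had median calls weaker than the Chordin run of 10, at 0.00105, and no reporter fragment overlapped them. The run on Scaffold122, from 986411 to 1010000, had no region at a probability of 1 and 2 very strong regions, with a median 1 minus probability of 0.00703. The run on Scaffold552, from 55621 to 88290, had none at 1 and 3 very strong ones, with a median of 0.00414. The run on Scaffold12, from 691741 to 717540, had region 9 listed at 1 and 5 very strong regions, with a median of 0.00314. It was tied with the run on Scaffold552 in regions and in peaks (11 each) and came after it by its shorter span, 25800 against 32670 bp. With only very strong peaks kept in both lists, the runs on Scaffold122 and Scaffold552 were not overlapped by a run and that on Scaffold12 was overlapped by a run of 4. Under that limit the runs on Scaffold364, Scaffold901, Scaffold704 and Scaffold1440 were still overlapped by runs of 9, 8, 10 and 5 regions.

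**Figure D4:**
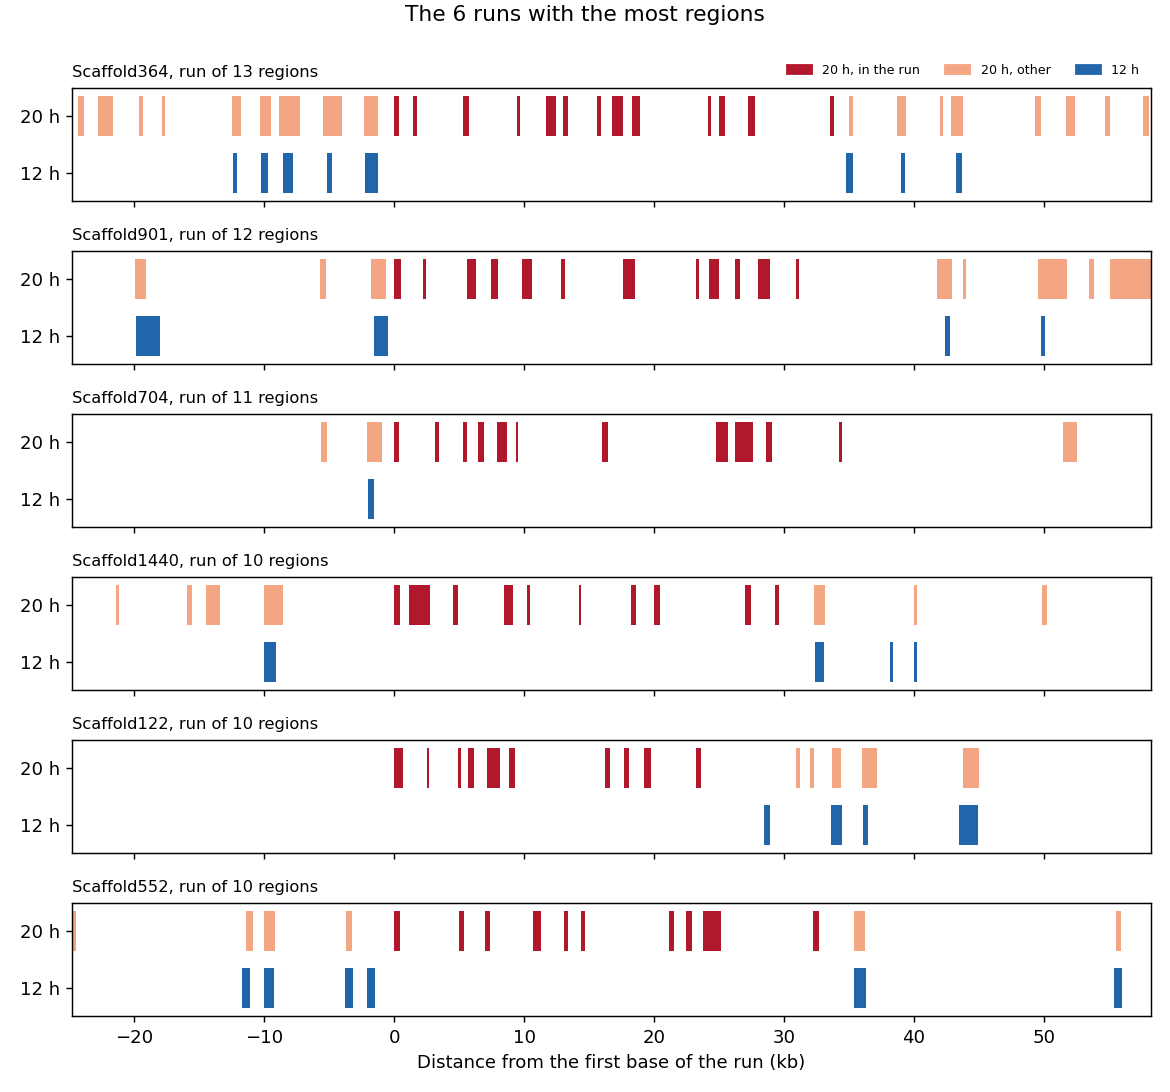
Maps of the 6 runs with the most regions (a seventh, on Scaffold12, also held 10 regions and came after these by its span), drawn to scale as distance in kb from the first base of the run. In each panel the upper row shows 20 h regions, in the run (red) or other (orange), and the lower row shows 12 h regions (blue). The run on Scaffold364 fills 33880 bp between shared regions that lie 1220 and 880 bp from its ends, while the run on Scaffold704 has a 12 h region only on its left.

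The 3 runs with the longest span each held 9 regions. That on Scaffold244, from 620541 to 664220, spanned 43680 bp with gaps of 810 to 7710 bp, that on Scaffold796, from 25281 to 65500, spanned 40220 bp, and that on Scaffold345, from 304991 to 344250, spanned 39260 bp. Each had 5 very strong regions and weakest regions between 0.0212 and 0.0265. Their median gaps were 5330, 4150 and 4185 bp, against 1910 bp in the run of 13 regions. At the other end, 3 runs of 3 regions had every region at a probability of 1. They lay on Scaffold225 from 948831 to 959090, on Scaffold145 from 298131 to 308250 and on Scaffold3 from 1121191 to 1124980. The run on Scaffold3 spanned only 3790 bp, with shared regions 4180 bp to its left and 1400 bp to its right.

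Runs were frequent at the developmental regulatory genes that the study had tested with reporters. The reporter table names genomic fragments at 37 loci, and only the names and positions of the fragments were used here. The study chose these fragments mainly for sequence conservation at known regulatory genes, so they are a selected list and no sample of the genome. Of the 191 fragments that held a 20 h region, 80 (41.9%) held a region of a run. Within fragments, 134 of 211 20 h regions (63.5%, interval 56.8 to 69.7%) were 20 h-only, beside 51.8% in the whole list. Of the 211, 89 (42.2%, 35.7 to 48.9%) stood in runs, beside 12.5% of the whole list. Of the 134 that were 20 h-only, 66.4% (58.1 to 73.9%) stood in runs, beside 24.0%. The share of all 20 h regions in runs went from 4.70% on the smallest scaffolds to 17.3% on the largest. The shares of the whole list were not matched to the scaffolds of these loci. In all 29 of the 1323 runs (2.19%, 1.53 to 3.13%) touched a fragment, over 22 of the 37 loci. None of the 222 12 h runs did, with a 95% Wilson upper bound of 1.70%, and these 2 intervals overlapped. The whole span of these loci held 16 12 h-only regions. Regions at 1 locus are not independent of each other, and no test was made of these shares.

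The larger runs were found at these loci more often. A fragment was touched by 3 of the 7 runs with 10 or more regions and by 9 of the 52 runs with 7 or more. It was touched by 13 of the 476 runs with 4 to 6 regions and by 7 of the 795 runs with 3. A larger run covers more of a scaffold and meets a fragment more easily.

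Over the whole span between the first and the last fragment of each locus there were 262 20 h regions and 103 12 h regions. Of the 20 h regions 172 (65.6%, 59.7 to 71.1%) were 20 h-only and 114 (43.5%) stood in runs. Of the 12 h regions 16 (15.5%, 9.79 to 23.8%) were 12 h-only, beside 39.8% in the whole 12 h list. Most regions listed at these loci at 12 h thus had an overlapping region at 20 h.

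Loci named for homeobox genes included some with runs and some without. At Nk22 the span held 8 run regions among 17 20 h regions, with 5 12 h regions, all shared. At Dlx, a distal-less homeobox gene, 8 of 13 were run regions, with 4 12 h regions. The Dlx run of 6 on Scaffold119, from 809851 to 824820, was strong throughout, with its weakest region at 0.00129. At Nk1 8 of 13 20 h regions stood in 2 runs, with 3 12 h regions. At Prox 7 of 10 did, and the Prox run on Scaffold468, from 255611 to 271480, had all 7 of its regions in 6 fragments, with 12 h-only regions 5810 bp to its left and 690 bp to its right. Gsc, the goosecoid homeobox gene, had 6 of 8 20 h regions in 2 runs on the same scaffold, and a single 12 h region. IrxA, of the Iroquois family, had 4 of 9. Lower counts were seen at Unc41, with 2 of 5, and at Lim1, a LIM homeobox gene, with 1 of 10. At Not 0 of 4, at Six12 0 of 3, at Hnf1 0 of 3 and at Atbf1 0 of 2 20 h regions stood in a run.

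Among forkhead genes the share varied. FoxN23 had 6 of 9 20 h regions in a run on Scaffold592, from 106211 to 128250, with 1 12 h region over the whole span, and this run held a gap of 9790 bp, close to the limit. FoxO had 3 of 3 and no 12 h region. FoxG had 2 of 8 and FoxJ1, a regulator of motile cilia, had 2 of 6, each with 3 12 h regions. FoxB and FoxK, with 2 and 1 20 h regions, had none in runs.

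Signalling genes and factors of other families were also found. At Tbx23 3 runs of 3, 7 and 13 regions followed each other within 96.7 kb, where 23 of 28 20 h regions stood in runs and 5 12 h regions, none of them 12 h-only, were listed. The run of 7, from 469741 to 495470, contained region 4 at 0.0426, the weakest region of the 20 h runs named here. GataC had 7 of 9 20 h regions in its run and Chordin 7 of 8, each with 1 12 h region. Bmp24, which encodes a BMP ligand, had 3 of 8 with 3 12 h regions. Id, an inhibitor of bHLH factors, had 5 of 9 in 2 runs, and its run of 6 on Scaffold376 spanned 141111 to 152610. Nfe2, a bZIP factor, had 5 of 8, in a run of 7 on Scaffold62 from 403641 to 420410 that ended at gaps on both sides. Z188 had 5 of 7, in a run of 7 on Scaffold153 from 331581 to 349160. Fic had 5 of 5 and no 12 h region, in a run of 7 on Scaffold3326 from 18921 to 38450. Dri, an ARID-domain factor, had 4 of 6, and Sip1, a zinc finger homeobox factor, had 3 of 9.

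Some loci without a run held many elements at 12 h and others held few. Dach had 15 20 h regions, none in a run, with 9 12 h regions. Ese had 11, none in a run, with 8. SoxB1, a factor of the SOX family, had 7, none in a run, with 5. Not had 4, all shared, with 5. At Dach 6 and at Ese 4 of the 20 h regions were 20 h-only, but these formed no stretch of 3 under the rule. Univin, a TGF-beta family ligand on the same scaffold as Bmp24, had 3 20 h regions and none in a run. Elk, Hnf1, Six12, Z13, Atbf1, Myc and Shr2 held between 1 and 6 20 h regions with none in a run, and Ecr held no 20 h region. Within the spans of the fragments, Atbf1 held 0 12 h regions and Hnf1, FoxB and FoxK held 1 each, all without a run. Among loci with runs, Tbx23 and Sip1 held 6 12 h regions each and Nk22 held 5. A 12 h region ends a run by the rule, but a relation between 12 h regions and runs over the loci was not tested.

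**Figure D5:**
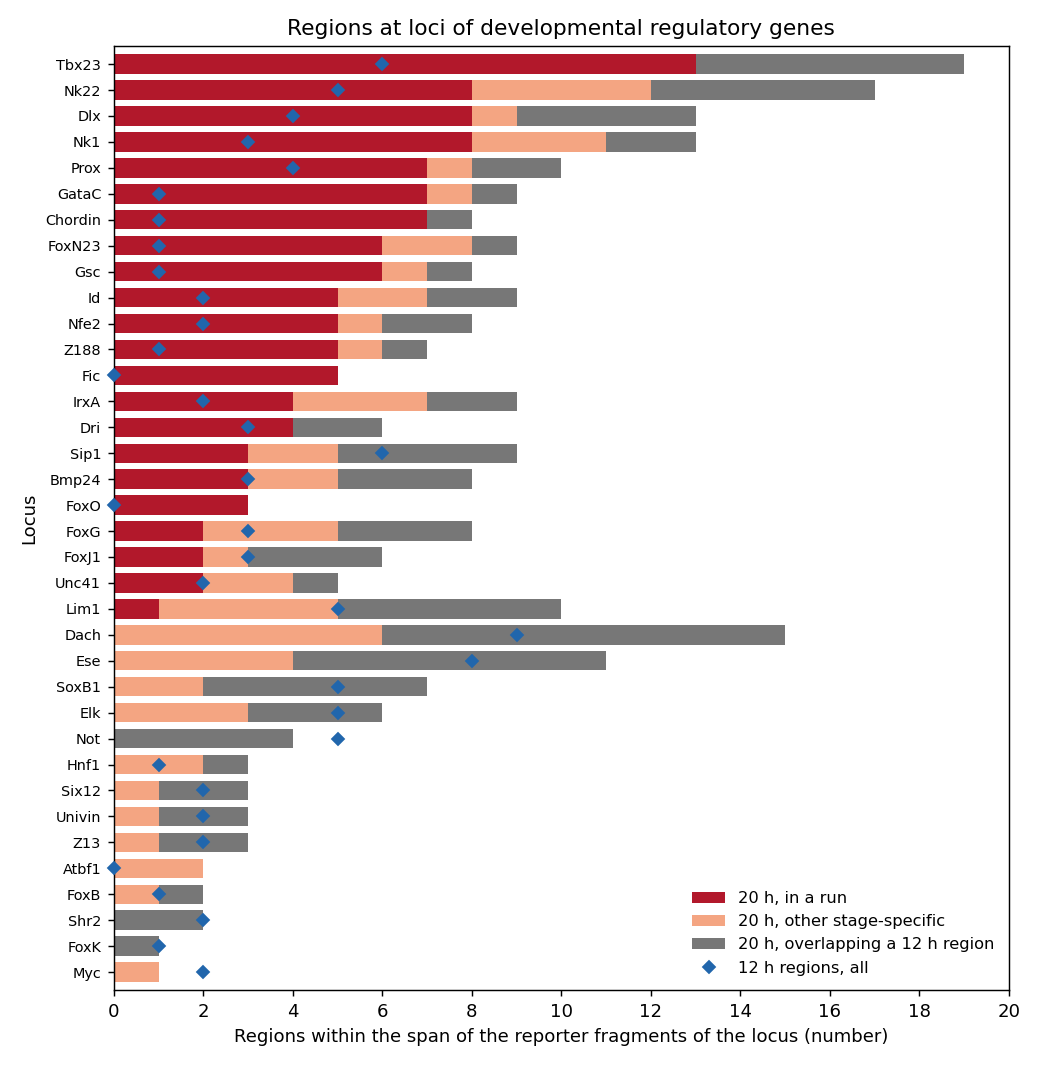
Number of 20 h regions within the span of the reporter fragments of each locus, split into regions in runs (red), other 20 h-only regions (orange) and regions that overlap a 12 h region (grey). Blue diamonds give the number of 12 h regions, and loci with no 20 h region are left out. Tbx23 leads with 13 run regions, and Dach and Ese have 15 and 11 20 h regions with none in a run.

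Runs were spread over the assembly. At 20 h they lay on 787 of 3941 scaffolds with a region (20.0%), and at 12 h on 206 of 4019 (5.13%). There were 90 scaffolds with runs of both ages. A single run was found on 476 scaffolds and 5 or more on 20. The share of regions in runs followed the size of the scaffold: it was 4.70% on scaffolds with 1 to 9 20 h regions, 11.8% with 10 to 29, 16.1% with 30 to 59 and 17.3% with 60 or more. The share of 20 h-only regions on the same scaffolds lay between 50.9 and 53.0%. The rule cannot join regions across scaffolds.

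The 3 scaffolds with the most run regions held 2.26% of them. Scaffold3 had 11 runs with 44 of its 177 20 h regions, spread from 244171 to 2303650, and none of them exceeded 6 regions. Scaffold364 had 5 runs with 37 of 78 regions (47.4%), and these followed each other from 450291 to 612090 with 14130 to 17620 bp between neighbours. They included a run of 8 and a run of 6 to the right of the Tbx23 runs. Scaffold468 had 7 runs with 31 of 87 regions (35.6%), among them those of Prox and Gsc. On Scaffold1440, with the Chordin runs, 22 of 33 20 h regions (66.7%) stood in 4 runs.

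Where a scaffold held more than 1 run, the runs were mostly far apart. The median distance between 536 neighbouring runs was 92725 bp, and 94 (17.5%) lay within 20 kb of each other. Exactly 1 locus parted 58 of them, and that locus was shared in 39 and 12 h-only in 11. A gap over 10 kb alone parted a further 32.

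The 10 kb limit divided runs from groups much like them. The largest gap exceeded 9 kb in 115 runs. Just inside the limit were a run of 7 regions on Scaffold469, from 164221 to 192330 with a gap of 9990 bp, and a run of 3 on Scaffold362, from 253841 to 268620 with a gap of 9980 bp. Just outside were 3 regions on Scaffold733, from 104841 to 119770 with a gap of 10030 bp, and 3 on Scaffold94, from 216621 to 228000 with a gap of 10040 bp. The weakest regions of those inside were at 0.00260 and 0.00374, and of those outside at 0.0183 and 0.0244. In all, 63 groups of 3 or more 20 h-only regions, these included, were broken only by a gap over 10 and at most 11 kb. At 12 h the runs with the most regions held 7 each, on Scaffold346 from 20381 to 41300, with 9 peaks, and on Scaffold315 from 466331 to 489770, with 7 peaks.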

How the data were processed

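Nuclei of whole embryos were used for PRO-seq by the authors, who used proseq2.0 and genome version 3.1 of *S. purpuratus* for mapping, merged the replicates of each age and ran dREG. The deposited lists give, per peak, a position and a probability as a fraction from 0 to 1. Tool versions and the probability threshold are not given in the sources used here. Reads per peak are not listed, so the depth per library is unknown, while the methods state many more mapped reads at 20 h than at 12 h. More biological replicates are numbered in the labels than are described in the methods, and the libraries behind each pool are therefore not certain.

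Python 3.11.15 and numpy 2.4.6 were used to merge peaks less than 500 bp apart and to find runs (3 or more regions, gaps of at most 10 kb, an overlap of at least 1 bp counted as shared). The step was tested on simulated data. Intervals are 95% Wilson intervals for shares (scipy 1.17.1) and binomial order-statistic intervals for medians. Figures were drawn with matplotlib 3.10.9. With 1 list per age no test was run. Named items were the 6 runs with the most regions, the 3 of longest span, the 3 with the strongest weakest region, the 3 scaffolds with the most run regions, the 12 largest runs touching a reporter fragment, the items nearest the 10 kb limit and the 2 largest 12 h runs. Calls within 0.001 of a probability of 1 are named very strong. The run on Scaffold12, tied in size with the sixth, and the counts of Scaffold1440 were added after values were seen. Members and lists were chosen with earlier results of these data known. Alternatives changed the merging distance, largest gap, overlap, probability, list length, scaffolds and smallest run.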

Additional observations from a re-analysis of the deposited data

How the results depend on the processing

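With 9 values recomputed under up to 14 alternatives, 124 values were obtained, of which 56 stayed within the counting interval (for counts, within 1.5 times), 67 moved and 1 changed direction. The largest run held 9 to 16 regions throughout. The direction changed for the ratio of 20 h to 12 h runs, which was 0.840 when a probability within 0.001 of 1 was required of 20 h peaks only, an alternative added after seeing the data that leaves 25755 20 h regions against 31840 12 h regions. Under it there were 457 runs with 1575 regions, 13.9% of 20 h-only regions in runs, 28.7% at a probability of 1, a median 1 minus probability of 2.89e-08 and 75.7% of flanks with a 12 h region. With 0.99 required of 20 h peaks only, also added afterwards, the values in the same order were 823, 3009, 19.6%, 21.7%, 5.01e-06 and 74.9%, and the ratio was 2.35. With the 20 h list reduced to the number of 12 h peaks, they were 808, 2942, 19.4%, 22.1%, 4.46e-06 and 74.9%, and the ratio was 2.26.

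Limits on both lists had less effect on the ratio. At 0.99, 22.2% of 20 h-only regions stood in runs, 22.4% of run regions were at 1, the median was 4.33e-06 and 70.1% of flanks held a 12 h region. With peaks within 0.001 of 1, there were 753 runs with 2707 regions, and the other values were 18.3%, 28.8%, 2.01e-08 and 64.6%. Without peaks at exactly 1, the share in runs was 22.6% and the median 0.000772. Unmerged peaks gave 2349 runs with 9604 peaks, a share of 35.9%, a span of 7230 bp, a ratio of 3.58, 15.5% at 1 and a median of 0.000427. Joining peaks at most 20 bp apart gave 28.7%, 8720 bp, 5.04, 16.9% and 0.000256. Merging below 1000 bp gave 19.4%, 11340 bp, 19.6% at 1 and 8.78e-05. Gaps of at most 5 kb gave 3167 regions, 15.3%, 6575 bp, a ratio of 7.63, 16.9% at 1 and 61.8% of flanks. Gaps of at most 20 kb gave 31.8%, 14850 bp, a ratio of 4.30 and 81.9% of flanks. Scaffolds with at least 10 regions in each list gave 27.2%, a ratio of 7.28 and 75.5% of flanks. Runs of 4 or more numbered 528 with 2580 regions, with 12.5%, 14120 bp, a ratio of 11.7 and 16.6% at 1. The cause of these changes was not tested beyond what each alternative removes. A distance of at least 500 bp from the other list moved none of the 9 values.

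Of the 1323 runs, 845 were overlapped by a run with 0.99 required in both lists, 533 with peaks within 0.001 of 1 and 799 with the shortened 20 h list. Of the 52 runs with 7 or more regions, 51, 41 and 51 were. No paired analysis was possible because each age has only 1 pooled list, and for the same reason leaving out a replicate was not run. The lists give no reads per peak or library. By the study's methods many more reads were mapped at 20 h than at 12 h, which limits every comparison of the ages.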
